A study of Mus musculus with 6 samples.

Results

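The replicate 3 libraries of a C2C12 siRNA experiment, 2 of 6 RNA-seq libraries, are compared here with the 4 libraries numbered 1 and 2. C2C12 is a mouse myoblast line that divides in serum-rich medium and forms contractile myotubes when serum is withdrawn. The cells were kept in DMEM with 10% fetal bovine serum and were transfected by means of RNAiMAX. The control group (3 libraries) received a random siRNA and the Cox7a2l siRNA group (3 libraries) received an siRNA that targets Cox7a2l, the gene of a factor that joins respiratory complexes III and IV. Total RNA was depleted of ribosomal RNA and made into libraries with strand marking by dUTP. No genotype, allele or differentiation step is given for any group, and no label says whether replicates were separate cultures, on which day they were harvested or what a replicate number shares. The replicate 3 libraries were chosen because they already stood apart over all genes, so their difference from the other 4 is given as a description, with no test. The siRNA effect itself is not tested.

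Myoblasts hold Myod1 and Myf5, the transcription factors of muscle identity, while they divide. On differentiation, myogenin (Myog) is switched on, the cell cycle is left, the membrane fusion proteins myomaker and myomixer appear, and the genes of the sarcomere, the contractile unit of actin, myosin and troponin, follow. Insulin-like growth factors act on muscle cells in this programme, and Notch signalling is known for holding myoblasts undifferentiated.

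Of the 15679 genes that passed the expression filter, 677 were higher and 360 were lower in replicate 3, which is 4.32% and 2.3% of the genes. The counts for gene lists below stand against these shares. A gene was counted when the replicate 3 library was at least 2-fold from the mean of replicates 1 and 2 in both siRNA groups and both replicate 3 libraries lay outside the range of the other 4. Values are CPM, counts scaled to a common library total with TMM factors, and each difference is on the log2(CPM + 0.5) scale, which understates the difference of low genes. Without a limit on size, both replicate 3 libraries lay above the other 4 for 23.0% of genes and below them for 22.6%. On the log2 scale of the deposited TPM values, the same rule counted 363 genes as higher and 426 as lower, and the median over all genes was -0.18 in place of -0.03. More higher than lower genes was thus seen on the count scale and not on the TPM scale. The filter was grouped by replicate 3. Grouped by siRNA, it kept 15022 genes, of which 567 were counted as higher and 346 as lower on the count scale. In pairs of libraries, the median absolute log2 difference over 12811 genes was 0.09 between control replicates 1 and 2, 0.20 between Cox7a2l siRNA replicates 1 and 2, and 0.35 to 0.47 between a replicate 3 library and any of the other 4. The replicate 3 libraries differed from each other by 0.35, as much as control replicate 3 differed from its own group.

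The lowest and the highest total were both in replicate 3, with 9890218 estimated counts in the Cox7a2l siRNA group and 17077826 in the control group. The siRNA target matched the labels, with Cox7a2l at 58.1, 59.7 and 58.7 CPM in the control libraries numbered 1, 2 and 3 and at 6.73, 5.91 and 3.57 CPM after its siRNA. The most abundant row, which has no symbol, held the smallest share of the counts in control replicate 3 (5.81%) and the largest in Cox7a2l siRNA replicate 3 (11.1%). Its share of TPM was 36.9% and 53.6% in them. Along the first principal component (63.5% of variance) lay a gap that set both replicate 3 libraries (47.3 and 71.8) apart from the other 4 (-34.7 to -23.6). The second (20.2%) separated control replicate 3 (44.9) from Cox7a2l siRNA replicate 3 (-32.3).

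Genes of myoblast identity given here were expressed in all 6 libraries. Myod1 had 130.4, 127.9 and 133.6 CPM in the control libraries 1, 2 and 3 and 117.8, 126.2 and 160.2 CPM in the Cox7a2l siRNA libraries 1, 2 and 3, and values below keep this order. Des, the muscle intermediate filament, had 767.8, 796.7 and 1067 CPM, and 955.4, 729.8 and 1878 CPM. Itga7, a laminin receptor chain of muscle, lay between 392.8 and 487.5 CPM in all 6 libraries. Pax7, the factor of muscle stem cells, had 24.2 to 26.3 CPM in the 4 libraries numbered 1 and 2, and 49.3 and 65.9 CPM in replicate 3 of the control and Cox7a2l siRNA groups. None of these 4 genes was counted, although Myod1, Des and Pax7 were highest in both replicate 3 libraries. Myf5, given below, went the other way in the control group, where replicate 3 was the lowest library. Cdh15 and Cdh2, also looked up as identity genes, are not reported here.

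The promoters of Myog, Myh3 and Actc1, a regulator and a pair of contractile genes that were all far higher in replicate 3, are shown to set their E-boxes and CArG boxes beside these values. Each is the 250 bases before the gene's start in RefSeq, build GRCm38.p6, 5′ to 3′ on the gene's strand. Capitals mark CANNTG, the E-box bound by factors of the Myod1 family, and the CArG box bound by serum response factor. Myog is at chr1:134289754-134290003 (plus strand), Myh3 at chr11:67078050-67078299 (plus strand) and Actc1 at chr2:114052876-114053125 (minus strand).
Myog: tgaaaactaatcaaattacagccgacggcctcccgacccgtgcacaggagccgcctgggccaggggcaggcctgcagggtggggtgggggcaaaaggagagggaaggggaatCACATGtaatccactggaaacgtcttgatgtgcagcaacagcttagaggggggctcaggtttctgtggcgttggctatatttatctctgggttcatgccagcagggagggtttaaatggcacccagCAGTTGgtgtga
Myh3: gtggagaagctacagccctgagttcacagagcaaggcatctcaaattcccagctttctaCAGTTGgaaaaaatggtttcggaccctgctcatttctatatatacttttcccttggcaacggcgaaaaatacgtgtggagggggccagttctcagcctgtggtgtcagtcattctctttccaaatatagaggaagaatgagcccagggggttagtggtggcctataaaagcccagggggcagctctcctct
Actc1: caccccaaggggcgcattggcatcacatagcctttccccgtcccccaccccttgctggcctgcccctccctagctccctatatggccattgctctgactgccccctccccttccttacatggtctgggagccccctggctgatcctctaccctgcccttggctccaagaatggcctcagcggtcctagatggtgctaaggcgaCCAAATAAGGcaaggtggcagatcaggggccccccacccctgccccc

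The Myog sequence holds 2 E-boxes, which begin 138 and 12 bases before the start. Myh3 holds 1, which begins 191 bases before it. Actc1 holds a CArG box and no CANNTG in this window. Over all genes, the letters CAGCTG, an E-box that reads the same on both strands, were found in the windows of 24.0% of the 334 protein-coding genes counted as higher that could be matched to a promoter. They were found for 14.2% of the 9853 tested protein-coding genes that could be matched and for 10.3% of the 117 counted as lower. The MEF2 motif was found for 5.69%, 2.08% and 0% of these sets, and the CArG box for 3.89%, 1.43% and 0%. CANNTG of any kind was found for 67.7%, 61.2% and 66.7%. Among the 20 sarcomere genes counted as higher with a promoter, 8 held CAGCTG, 4 the MEF2 motif and 4 the CArG box. Over all 32851 RefSeq promoters of this length, 66.2% held CANNTG, 13.0% CAGCTG, 2.92% the MEF2 motif and 1.47% the CArG box. All motifs were searched on both strands, and a match is only a description of the letters. None of the Myog, Myh3 and Actc1 windows matched the MEF2 pattern as searched. A site that departs from that pattern would be missed.

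Genes of muscle differentiation were higher in both replicate 3 libraries. Myog had 2.91, 3.798 and 60.8 CPM in the control libraries and 9.59, 1.34 and 157.6 CPM after Cox7a2l siRNA. Both replicate 3 libraries lay above all others, with differences of 4.001 and 5.20 on the log2 scale (16.0-fold and 36.7-fold). In the pair of Cox7a2l siRNA libraries numbered 1 and 2, the levels themselves stood 9.59 against 1.34 CPM, so the reference for that group was wide. Of the 15 tested regulators of myogenesis, 3 were counted as higher and none as lower, with a median log2 difference of 0.63 against -0.03 over all genes. Beside Myog these were Smyd1, a methyltransferase and myosin chaperone partner of muscle, and Mymx, which encodes myomixer. Myog was thus the only transcription factor counted in this list, and Mymx also stands in the fusion list. Smyd1 had 0.926, 0.552 and 6.69 CPM, and 2.60, 0.845 and 9.59 CPM. Mymx had 0.463, 0.207 and 1.61 CPM, and 1.02, 0.211 and 6.69 CPM. Myf5 was not counted, at 56.7, 59.0 and 32.8 CPM, and 79.8, 45.04 and 58.0 CPM.

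Sarcomere genes showed the same order. Of 33 tested, 27 were counted as higher and none as lower, and all 33 were above the reference in both groups. The filter was grouped by replicate 3, which favours genes seen there. Grouped by siRNA, it would keep 27 of the 33 for testing, so the shares of this list are in part set by the filter. The median log2 difference of the list was 1.91 in the control group and 2.38 in the Cox7a2l siRNA group. Myh3, a myosin heavy chain of embryonic muscle, had 0.794, 1.31 and 21.7 CPM in the control libraries and 2.98, 1.20 and 52.7 CPM after Cox7a2l siRNA (log2 differences 3.86 and 4.45). Actc1, the actin of heart and embryonic skeletal muscle, had 1.26, 0.345 and 18.5 CPM, and 3.30, 0.422 and 64.0 CPM (3.96 and 5.11). Acta1, the adult skeletal muscle actin, had 2.18, 1.04 and 24.1 CPM, and 3.43, 2.67 and 59.9 CPM (3.60 and 4.10). Mybph, a myosin-binding protein, had 0.331, 0.276 and 9.34 CPM, and 1.33, 0.493 and 18.5 CPM (3.62 and 3.82). For each of these 4 genes the replicate 3 libraries lay above all others, and that of the Cox7a2l siRNA group was the higher of the pair. Cox7a2l siRNA replicate 1 lay above the other libraries numbered 1 and 2 for each of them, so the reference of that group was uneven. The 6 genes of the list that were not counted were Actn3, Myh8, Myl4, Tpm1, Nebl and Des, with mean log2 differences from 0.26 to 0.95. Summed over the 44 listed genes, the level was 1670, 1700 and 3720 CPM in the control libraries. After Cox7a2l siRNA it was 2390, 1890 and 6260 CPM. Des, not counted, made up a large part of these sums. More cells that express these genes and more of their RNA per cell cannot be told apart in bulk RNA.

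**Figure D1:**
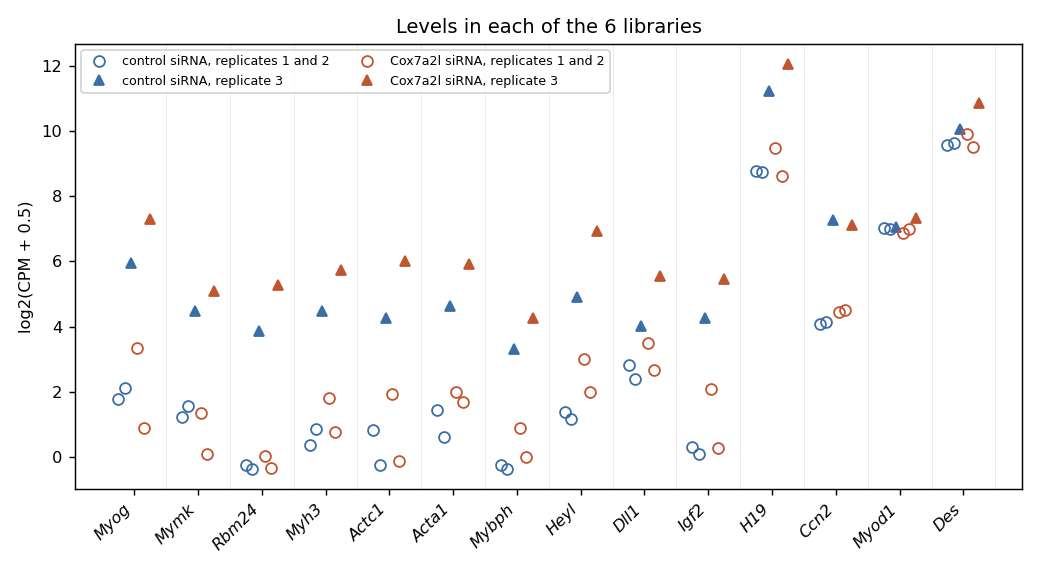
Level of 14 genes in each library as log2(CPM + 0.5); open circles are replicates 1 and 2, filled triangles are replicate 3, blue is control siRNA and orange is Cox7a2l siRNA. Myog, the contractile genes, Heyl and Igf2 have both triangles above the 4 circles, while Myod1 differs little between the libraries.

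Some genes of the muscle membrane and its calcium supply were counted as higher as well. Of 22 tested genes for calcium handling and the acetylcholine receptor, 6 were counted as higher and none as lower, with a median log2 difference of 0.89. Atp2a1, the calcium pump of fast muscle, had 3.90, 3.66 and 22.6 CPM in the control libraries and 7.87, 5.56 and 29.4 CPM after Cox7a2l siRNA. Cacna1s, the voltage sensor of muscle, had 0.198, 0.0691 and 2.42 CPM, and 0.191, 0 and 2.45 CPM. Dok7, an adaptor of the neuromuscular junction, had 2.71, 3.52 and 9.06 CPM, and 5.52, 2.25 and 21.7 CPM. In the list of muscle metabolism and membrane genes, 3 of 15 were counted as higher and none as lower. Among them were Ckm (muscle creatine kinase) and Cav3 (the muscle caveolin), with mean log2 differences of 2.30 and 1.26. Cav3 had 0, 0 and 0.692 CPM, and 0, 0.0704 and 0.780 CPM, with 12 estimated counts in control replicate 3. Ckm, Cav3 and Cacna1s, and Rbm24 below, passed the filter through the replicate 3 libraries alone. Grouped by siRNA, the filter would keep 12 of the 15 genes of this list and 21 of the 22 for calcium handling. Of 17 tested fusion genes, 2 were counted as higher, both encoding the fusion proteins proper. Mymk, which encodes myomaker, had 1.85, 2.42 and 21.8 CPM, and 2.03, 0.563 and 33.9 CPM, and Mymx is given above. The median of the fusion list was 0.04 on the log2 scale, close to that of all genes, and its sign turned with the scaling. Rbm24, an RNA-binding protein of muscle splicing, had 0.331, 0.276 and 13.96 CPM, and 0.508, 0.281 and 37.9 CPM, outside any list. Parm1, a membrane mucin, had 0.198, 0 and 20.9 CPM, and 0.889, 0 and 51.3 CPM.

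Some markers of other cell types were counted, against shares of 4.32% higher and 2.3% lower over all genes. Of 9 tested smooth muscle markers, 5 were counted as higher and none as lower. The summed level of the 10 listed was 1440 to 2080 CPM in the 4 libraries numbered 1 and 2. It was 2270 CPM in control replicate 3 and 4390 CPM in Cox7a2l siRNA replicate 3. A large part of this sum in every library was Des, given above as a muscle filament and not counted. Tagln, an actin-binding protein, had 19.5, 19.3 and 82.8 CPM in the control libraries and 39.3, 23.2 and 251.7 CPM after Cox7a2l siRNA. Myh11, the defining myosin of smooth muscle, was at or below 0.0704 CPM in all 6 libraries. Among fibroblast markers 2 of 8 were higher (Dcn and Col1a1) and none was lower, and their sum over 13 listed genes was 2110 to 3500 CPM in the libraries numbered 1 and 2 and 2590 to 3030 CPM in replicate 3. Of 6 tested bone and cartilage markers 1 was higher (Dmp1), and of 5 adipocyte markers 1 was lower (Plin4). The shares of these 3 lists were above those of all genes, but each rests on 1 or 2 genes of a short list. No endothelial, macrophage, neural or epithelial marker was counted. The summed level per library was 5.63 to 10.9 CPM for 11 endothelial markers, 9.97 to 12.4 CPM for 13 macrophage and leukocyte markers and 3.11 to 10.2 CPM for 10 epithelial markers. Adgre1, Tyrobp, Epcam, Krt5, Emcn, Cldn5 and Sox10 were at 0 in all 6 libraries.

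In the Notch pathway, a target, a ligand and a coactivator were higher in both replicate 3 libraries, while no receptor was counted. Heyl, a target gene that encodes a transcriptional repressor, had 2.12, 1.73 and 29.3 CPM in the control libraries and 7.43, 3.45 and 120.9 CPM after Cox7a2l siRNA (log2 differences 3.63 and 4.44). Dll1, a ligand, had 6.48, 4.76 and 15.8 CPM, and 10.7, 5.84 and 46.0 CPM. Maml2, a coactivator, had 7.81, 12.4 and 33.7 CPM, and 9.21, 10.8 and 28.1 CPM. These 3 were the only ones counted of 23 tested genes, and the median of the list was 0.03. The ligands Jag1 and Jag2 had mean log2 differences of -0.97 and -0.56, the receptors Notch1, Notch2 and Notch3 had 0.01, -0.47 and -0.33, and the targets Hes1 and Hey1 had 0.80 and 0.56. The ligands therefore stood on both sides of 0, and the targets named here stood above it. In the list of Id and BMP genes, 1 of 18 was counted, as lower. It was Id1, an inhibitor of Myod1-family factors, at 59.7, 61.3 and 15.3 CPM, and 65.3, 65.5 and 28.3 CPM.

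Among the genes of the insulin-like growth factors, 5 of 17 were counted as higher and none as lower. Igf2, the fetal ligand, had 0.728, 0.552 and 18.8 CPM in the control libraries and 3.75, 0.704 and 43.6 CPM after Cox7a2l siRNA (log2 differences 4.09 and 4.29). H19, the noncoding RNA imprinted beside Igf2, had 442.3, 433.1 and 2415 CPM, and 715.9, 396.1 and 4265 CPM (2.46 and 3.00). Igfbp5, a binding protein, had 1129, 1086 and 3086 CPM, and 2933, 1297 and 9837 CPM (1.48 and 2.33). Igf1 and Igf2bp2 completed the 5, and the receptors Igf1r and Igf2r, at 0.48 and 0.89 on the log2 scale, were not counted. For Igf2, H19 and Igfbp5, Cox7a2l siRNA replicate 1 lay above the other 3 libraries numbered 1 and 2. Igfbp3, another binding protein, was not counted and was far from even, at 24.0, 22.9 and 3.92 CPM in the control libraries and 56.0, 48.7 and 40.0 CPM after Cox7a2l siRNA.

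Messages of mitochondrial DNA formed the list with the largest median. Of the 13 protein genes, 12 were counted as higher, and all 13 were above the reference in both groups, with a median log2 difference of 3.35 in the control group and 2.77 in the Cox7a2l siRNA group. mt-Cytb, a subunit of complex III, had 366.9, 359.7 and 2869 CPM in the control libraries and 405.5, 433.2 and 1799 CPM after Cox7a2l siRNA. mt-Nd2, a subunit of complex I, had 94.2, 93.5 and 1665 CPM, and 106.5, 105.0 and 1026 CPM. mt-Nd6, read from the other strand of mitochondrial DNA, had 82.9, 73.9 and 323.7 CPM, and 74.8, 61.9 and 600.4 CPM. For mt-Cytb and mt-Nd2 the control library was the higher of the replicate 3 pair, and for mt-Nd6 the Cox7a2l siRNA library was. mt-Co1, a subunit of complex IV, was the 1 gene not counted, at 4308, 4211 and 9795 CPM, and 3986, 3974 and 6083 CPM. The ribosomal RNAs mt-Rnr1 and mt-Rnr2, in libraries depleted of ribosomal RNA, had mean log2 differences of 0.87 and 0.26.

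Several of these genes have copies in the nuclear genome whose annotated rows took a part of the reads. The reads of a copy and of the mitochondrial gene cannot be told apart where the letters are the same. For mt-Atp6, a subunit of ATP synthase, the levels were 118.4, 110.8 and 2856 CPM, and 113.1, 100.7 and 1541 CPM. Gm10925 shares 100% of its stretches of 31 bases with mt-Atp6 and had 432.4, 481.7 and 444.0 CPM, and 482.9, 520.1 and 54.7 CPM. The log2 difference of mt-Atp6 alone was 4.63 and 3.85 in the control and Cox7a2l siRNA groups, and that of both rows summed was 2.53 and 1.39. For mt-Co3 with Gm28437 the sum gave 1.48 and 0.40 in place of 3.20 and 2.05, for mt-Co2 with Gm28661 it gave 2.16 and 1.27 in place of 2.83 and 2.73, and for mt-Nd3 with Gm28438 it gave 2.91 and 1.82 in place of 5.31 and 4.72. Each of these sums kept its direction in both groups with a smaller value, and that of mt-Co3 was under 2-fold in the Cox7a2l siRNA group. The counted genes and medians above are of single rows, without such sums. No tested pseudogene row had mt-Cytb, mt-Nd1, mt-Nd2, mt-Nd5 or mt-Nd6 as its closest gene. Only the closest gene of each row was kept, so copies that share some letters with them are not excluded.

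**Figure D2:**
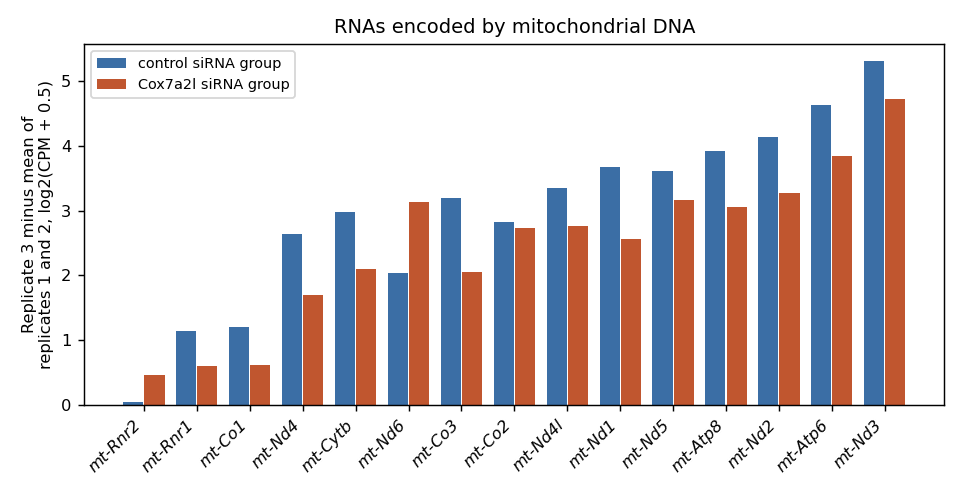
Replicate 3 minus the mean of replicates 1 and 2, on the log2(CPM + 0.5) scale, for each RNA of mitochondrial DNA; blue bars are the control siRNA group and orange bars the Cox7a2l siRNA group. All bars are above 0, the mitochondrial ribosomal RNAs and mt-Co1 are the shortest, and mt-Nd6 has the higher bar in the Cox7a2l siRNA group.

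Some nuclear genes of the same complexes were counted, all as higher. Of 36 nuclear complex I subunits, 3 were counted as higher (Ndufa12, Ndufa5 and Ndufa3) and the median was 0.10. Of 38 subunits of complexes II to V, 4 were counted as higher with a median of -0.07. Both shares were above the 4.32% of all genes, and the median of all genes was -0.03. Ndufa12 had 4.96, 7.66 and 41.5 CPM, and 4.83, 5.91 and 55.5 CPM. Both replicate 3 libraries lay above the other 4 for Ndufa12. Of 40 mitochondrial ribosomal proteins none was counted in either direction. Of 27 genes of mitochondrial transcription and maintenance, 1 was counted, as lower, and the median was -0.24. It was Tefm, the elongation factor of mitochondrial RNA polymerase, at 5.49, 4.97 and 2.19 CPM, and 6.29, 4.93 and 2.12 CPM.

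Histone genes expressed in S phase were lower in replicate 3 of both groups. Of 40 tested, 13 were counted as lower and none as higher, and 36 were below the reference in both groups, with medians of -0.77 in the control group and -0.94 in the Cox7a2l siRNA group. Hist1h4i, a histone H4 gene, had 258.6, 263.1 and 40.8 CPM in the control libraries and 191.0, 186.6 and 37.3 CPM after Cox7a2l siRNA. Hist2h3b, a histone H3 gene, had 1295, 1362 and 296.1 CPM, and 911.4, 1053 and 236.1 CPM. In both genes the replicate 3 libraries lay below the other 4. The summed level of the 41 listed genes was 12000, 12700 and 6450 CPM in the control libraries and 8960, 10400 and 4980 CPM after Cox7a2l siRNA. Members of a histone family are nearly identical to each other, so the division of reads among them is uncertain.

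For other genes of the cell cycle, the medians of the siRNA groups lay apart. Of 40 genes of S phase and replication, 1 was counted, as lower (Rfc4, a subunit of the clamp loader, mean log2 difference -1.18). The median was -0.13 in the control group and -0.81 in the Cox7a2l siRNA group, where 37 of 40 were below the reference. Of 40 genes of G2 and mitosis none was counted, and the medians were 0.10 and -0.62. Mki67, the proliferation antigen, had 466.3, 492.4 and 829.7 CPM in the control libraries and 321.8, 381.1 and 282.7 CPM after Cox7a2l siRNA, above the reference in the first and below it in the second. Cdk1, the mitotic kinase, had 134.4, 136.8 and 118.6 CPM, and 96.4, 96.2 and 45.6 CPM. Both genes were picked from the list after their values were seen. Whether the replicate 3 difference itself differed between the siRNA groups was tested with the interaction term of edgeR's quasi-likelihood fit. No gene of either list passed after Benjamini-Hochberg adjustment over all genes in the fit without the replicate block, and this rested on the fit. With the replicate block 1 gene of each list passed (Pole, a DNA polymerase subunit, and Mki67), and DESeq2 called 1 and 2. With no filter on low counts, 11 S phase and 17 G2 and mitosis genes passed. Without Cox7a2l siRNA replicate 1 there were 34 and 36, and without its replicate 2 there were 31 and 33. Without adjustment, 28 of the 40 S phase genes and 31 of the 40 G2 and mitosis genes had p under 0.05, each with the lower difference in the Cox7a2l siRNA group, against 8.53% of all genes in that direction. The list medians without Cox7a2l siRNA replicate 3 are those of the control group alone, -0.13 and 0.10, so the lower level of G2 and mitosis genes rests on that library. In the list of G1 cyclins and cell cycle exit, 2 of 19 were higher and none lower. They were Gadd45a, a stress-induced growth arrest gene, and Cdkn1c, an inhibitor of cyclin-dependent kinases, at 1.51 and 1.42 on the log2 scale.

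**Figure D3:**
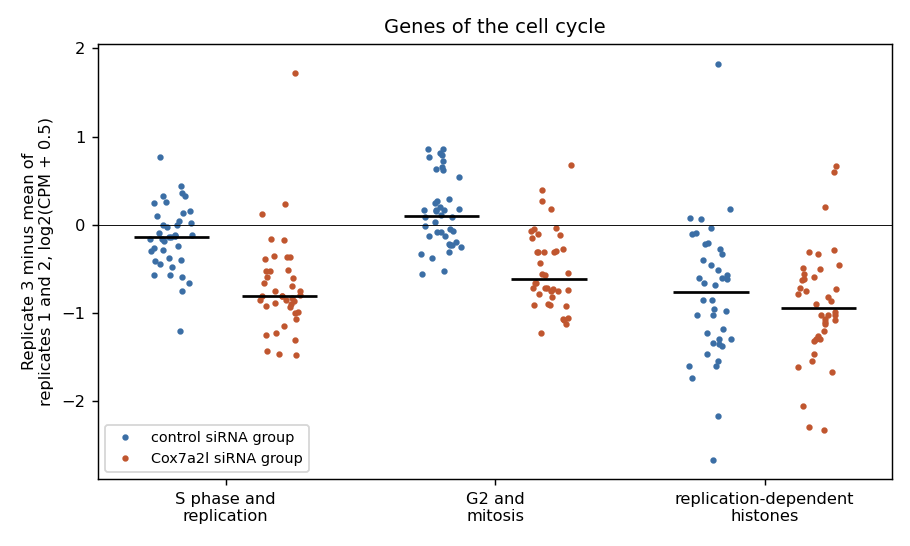
Replicate 3 minus the mean of replicates 1 and 2 on the log2(CPM + 0.5) scale for the 40 tested genes of each of 3 cell cycle lists; each point is a gene, black lines are medians, blue is the control siRNA group and orange the Cox7a2l siRNA group. The histone medians lie below 0 in both groups (-0.77 and -0.94), and the G2 and mitosis medians lie on either side of 0 (0.10 and -0.62).

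Of 42 tested genes of the extracellular matrix and the TGF-beta response, 7 were counted as higher and 2 as lower, with a median of 0.06. Ccn2, a matricellular protein induced by TGF-beta and YAP, had 16.5, 17.2 and 154.3 CPM in the control libraries and 21.4, 22.1 and 137.2 CPM after Cox7a2l siRNA. Dcn, the proteoglycan decorin, had 1.85, 2.49 and 11.6 CPM, and 9.91, 3.66 and 44.8 CPM. Col15a1, a basement membrane collagen, had 1.32, 1.66 and 0 CPM, and 0.762, 1.76 and 0 CPM, at least 8.61-fold and 3.77-fold lower with the floor set at 3 counts per library. Of 22 YAP targets, 3 were higher (Ccn2, Tgfb2 and Ccn1) and none was lower. Members of this field thus lay on both sides of the other libraries.

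Immediate early genes, which respond to serum and stress within minutes, were mostly on the higher side. Of 28 tested, 4 were counted as higher and none as lower, 20 were above the reference in both groups, and the median was 0.51. Egr1 had 87.8, 87.1 and 376.1 CPM in the control libraries and 89.6, 93.5 and 454.6 CPM after Cox7a2l siRNA. Fos had 3.04, 2.97 and 13.1 CPM, and 3.49, 3.03 and 14.6 CPM. Dusp1, a phosphatase of MAP kinases, had 45.5, 45.7 and 125.8 CPM, and 28.8, 24.3 and 94.6 CPM. In all 3 the libraries numbered 1 and 2 of a group lay close together and the replicate 3 library far above them.

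A few genes of glycolysis and of the amino acid response were counted as lower. Of 36 tested genes of glycolysis and the hypoxia response, 3 were counted as lower and none as higher, with a median of -0.24, and 20 were below the reference in both groups and 10 above it. Ldha, the lactate dehydrogenase subunit, had 1164, 1198 and 573.2 CPM, and 962.3, 1013 and 417.8 CPM. Pdk1, a kinase that limits pyruvate entry to mitochondria, and Bnip3, a mitophagy receptor, had mean log2 differences of -1.29 and -1.05. Of 32 tested genes of ATF4 and the amino acid response, 4 were counted as lower and 1 as higher, and 23 were below the reference in both groups. Trib3, a pseudokinase induced by ATF4, had 23.1, 28.8 and 12.1 CPM, and 22.0, 17.0 and 4.90 CPM. Cth, an enzyme of cysteine synthesis, had 12.8, 12.6 and 5.13 CPM, and 9.14, 6.55 and 2.01 CPM. Fgf21, a hormone that ATF4 also induces, was on the other side at 0.265, 0.345 and 2.54 CPM, and 0.317, 0.141 and 3.46 CPM. Fgf21 passed the filter through the replicate 3 libraries alone. Of 26 antioxidant genes 2 were lower (Mt1 and Gsta4) and none higher, against 2.3% and 4.32% of all genes.

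Inflammatory genes did not lie on a common side. Of 25 interferon response genes, 2 were counted as higher (Oasl2 and B2m) and none as lower. Of 17 chemokines and cytokines, Ccl2 was higher while Ccl7 and Cxcl5 were lower. These few counts stand beside shares of 4.32% higher and 2.3% lower over all genes. B2m, the light chain of MHC class I, had 49.2, 52.96 and 162.6 CPM, and 56.6, 63.1 and 149.2 CPM. Ccl7 had 10.7, 10.6 and 2.71 CPM, and 11.8, 10.5 and 3.90 CPM.

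**Figure D4:**
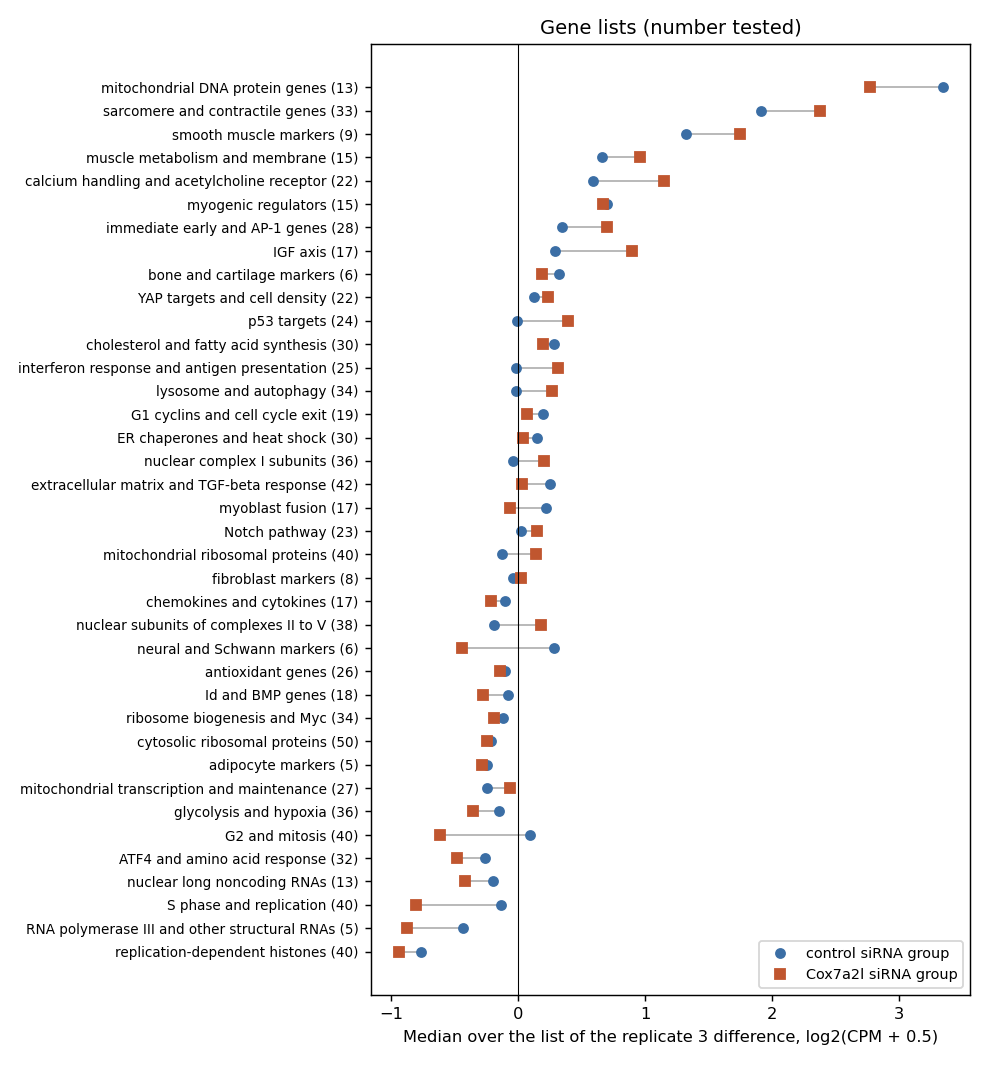
Median replicate 3 difference of each gene list with at least 5 tested genes, on the log2(CPM + 0.5) scale; blue circles are the control siRNA group, orange squares the Cox7a2l siRNA group, and the number tested is in brackets. Mitochondrial DNA genes (3.35 and 2.77) and sarcomere genes (1.91 and 2.38) lie farthest above 0, and replication-dependent histones (-0.77 and -0.94) farthest below.

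On the deposited TPM scale, where the median of all genes was -0.18, the small medians of the fusion, Notch, complex I, matrix and YAP lists were below 0, while those of the sarcomere, mitochondrial DNA, myogenic regulator and immediate early lists stayed above 0 under every setting tried.

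The share of pseudogenes counted was larger than that of protein-coding genes. Of 50 cytosolic ribosomal protein genes, 1 was counted as higher (Rpl15) and 2 as lower (Rps12 among them), against 4.32% and 2.3% of all genes. Their median was -0.20. Of 674 tested pseudogenes, 75 were higher and 66 lower, which is 20.9% of them, against 5.42% of 12662 protein-coding genes. Rps13-ps1 was at 0 in all 4 libraries numbered 1 and 2 and at 54.0 and 71.9 CPM in control and Cox7a2l siRNA replicate 3, at least 260.9-fold and 340.5-fold higher. It shares 87.2% of its stretches of 31 bases with Rps13, and the sum of both rows differed by 1.20 and 1.11 on the log2 scale. Pgk1-rs7 had 191.0, 210.1 and 0 CPM in the control libraries and 121.5, 153.5 and 0 CPM after Cox7a2l siRNA, at least 1159-fold and 411.2-fold lower. It shares 100% of its stretches with Pgk1, a glycolytic enzyme, and the sum of both rows differed by -0.95 and -1.73. Pgam1-ps2 had 218.2, 220.1 and 0 CPM, and 187.4, 200.5 and 9.59 CPM, and its sum with Pgam1 differed by -0.64 and -0.58. The median share of stretches found in other genes was 86.3% among pseudogenes counted as higher, 93.9% among those counted as lower and 57.2% among the others. Partner genes were compared for pseudogenes with at least 50% of their stretches in other genes. These were 62 of 75 higher, 60 of 66 lower and 293 of 533 not counted. Where such a pseudogene had a tested partner, the partner lay within 2-fold in 40 of 62 cases among the higher. That held in 49 of 59 among the lower and in 249 of 292 among those not counted. These pseudogene values are uncertain, since estimated counts divide reads between near-identical copies.

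Among the 15 lowest named genes, pseudogenes and retrogenes were joined by a few others. Notum, a secreted enzyme that inactivates Wnt proteins, had 7.14, 7.94 and 0.692 CPM in the control libraries and 5.52, 5.14 and 0.446 CPM after Cox7a2l siRNA. Ccn5, a matricellular protein, had 12.2, 10.3 and 1.38 CPM, and 6.92, 12.2 and 0.892 CPM. Slpi, a secreted protease inhibitor, had 4.96, 4.28 and 0.461 CPM, and 3.75, 8.73 and 0.111 CPM. Rprl3, an RNA related to that of ribonuclease P, had 61.5, 35.6 and 4.15 CPM, and 42.5, 24.3 and 3.23 CPM. In all 4 of them the replicate 3 libraries lay far below the other 4. A row that shares the symbol Chtf8 with another row (ENSMUSG00000117748.2) had 35.7, 33.5 and 2.60 CPM, and 26.6, 27.5 and 3.57 CPM.

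The siRNA groups share no library, so their replicate 3 differences can be set side by side. In the control group 1128 genes (7.19%) were at least 2-fold higher and 777 (4.96%) at least 2-fold lower, and in the Cox7a2l siRNA group 1304 (8.32%) and 1124 (7.17%). Of these, 689 were higher in both, which is 61.1% of the control set and 52.8% of the Cox7a2l siRNA set, and 371 were lower in both, which is 47.7% and 33.0%. The filter was grouped by replicate 3, which favours genes seen in both replicate 3 libraries and so the shares for higher genes. With the filter grouped by siRNA these shares were 59.6% and 50.9%, and those for lower genes 48.8% and 33.2%. On the deposited TPM scale the shares for higher genes were 33.0% and 71.7%, and for lower genes 66.5% and 17.2%. Of the genes 2-fold higher in control replicate 3, 93.6% were above the reference in the Cox7a2l siRNA group too, against 48.7% of all genes, and 13 were 2-fold lower there. Across genes, Pearson's r of both differences was 0.71 and Spearman's rho was 0.63 (15679 genes, which are not independent replicates). Both differences rest on libraries of unequal depth and on references of unequal spread. In protein-coding genes the median difference went from 0.02 in the fifth of genes with the lowest GC content to -0.15 in the fifth with the highest in the control group, and from -0.15 to 0.12 in the Cox7a2l siRNA group. GC content thus moved with the difference in opposite directions, and its part in the disagreement of the groups was not tested.

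**Figure D5:**
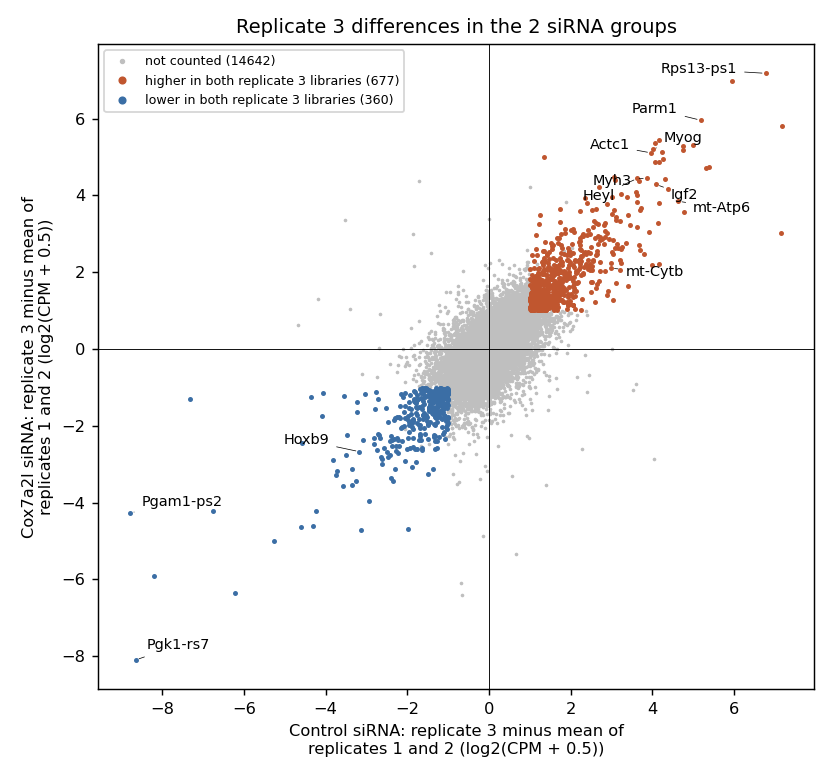
Replicate 3 minus the mean of replicates 1 and 2 for 15679 genes, on the log2(CPM + 0.5) scale, in the control siRNA group (x axis) and the Cox7a2l siRNA group (y axis); orange points are the 677 genes counted as higher, blue points the 360 counted as lower and grey points the rest. Most genes far from 0 lie along the diagonal, and a few lie in the quadrants where the groups differ in sign.

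The interaction test found 12 genes (0.0765% of those tested) whose replicate 3 difference differed between the siRNA groups at an adjusted p under 0.05, 7 (0.0446%) with the higher and 5 (0.0319%) with the lower value in the Cox7a2l siRNA group. At an unadjusted p under 0.05 there were 2671 (17.0%), 8.5% with the higher and 8.53% with the lower value. The spread in this test comes from replicates 1 and 2 alone, with 2 residual degrees of freedom, and these counts are from the fit without the replicate block. With the block, which treats libraries of the same number as pairs, 87 genes passed, with DESeq2 83 and with no filter on low counts 424. Without Cox7a2l siRNA replicate 1 there were 4908 and without replicate 2 there were 4150, with the spread then taken from the control pair alone. By biotype, 8 of the 12 are pseudogenes, Nutf2-ps1 and Gm20716 are annotated as protein-coding, and 2 have no symbol. Gm10052, which shares 100% of its stretches of 31 bases with Hnrnpa1, had 54.2, 42.3 and 2.13 CPM in the control libraries and 50.9, 52.6 and 128.3 CPM after Cox7a2l siRNA (edgeR adjusted p = 0.00654). None of the sarcomere genes, myogenic regulators or protein genes of mitochondrial DNA was among the 12. Of the 13 mitochondrial DNA protein genes, 2 passed with the block (mt-Nd1 and mt-Nd6), 5 with DESeq2, 7 with no filter and 10 without either of those Cox7a2l siRNA libraries. Of the 33 sarcomere genes and the 15 myogenic regulators, none passed with the block, with DESeq2 or with no filter, but 8 and 11 passed without Cox7a2l siRNA replicate 1 and 8 and 9 without replicate 2. Without adjustment, 10 of the 13 mitochondrial DNA protein genes had p under 0.05, 9 of them with the lower difference in the Cox7a2l siRNA group, and 4 of the 33 sarcomere genes did, all with the higher difference there.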

How the data were processed

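The authors deposited estimated counts per gene, not scaled to depth and in part not whole numbers, and TPM per gene, scaled by the authors to length and to a common total. Salmon 0.13.1, Trim Galore 0.6.4, DESeq2 1.30.1 and build mm39 are named per the submitters' processing notes. Of the annotation release, the sources used here say nothing. The authors' table of comparisons was not used. Symbols and biotypes were joined by gene ID without version from GENCODE M21 on GRCm38 (97.6% of 52740 rows). No coordinates of the files are given, since that is another build.

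Counts were rounded, because the design had foreseen whole counts, and scaled with TMM in edgeR 4.0.16 (R 4.3.3). Genes passed filterByExpr grouped by replicate 3 against the others. Of those, 657 would not pass grouped by siRNA, so the filter favours genes seen in replicate 3. Cacna1s, Ckm, Cav3, Rbm24, Fgf21 and Rps13-ps1, low or at 0 in the libraries numbered 1 and 2, were among these. The interaction was tested with glmQLFit (robust) and glmQLFTest, Benjamini-Hochberg adjusted, with scripts tested on simulated data. Alternatives were other scalings, filters, pseudocounts and thresholds, DESeq2 1.42.0, a replicate block and leaving out each library. Since no label calls the replicates separate cultures, p-values cover only the spread of these libraries, perhaps a technical one.

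Libraries of the same number correlated in their deviations from group means at r = 0.57, 0.48 and 0.70 over genes, each over 0.1. Only the fits with a replicate block treat them as pairs. Deviations within a group cancel out, so the shift shared by the replicate 3 libraries raises these values by itself. They therefore cannot show pairing. The interaction as designed has no replicate block, so the blocked counts are given beside it. Replicates 1 and 2 also correlated across numbers (0.48 and 0.48), and no label gives the source of pairing. Named genes were the 5 markers, the 15 per direction with the largest mean difference among counted genes of at least 2 CPM, up to 3 counted members per list and direction, and up to 5 interaction genes per direction. Unnamed models were left out, and Myf5, uncounted list members, mitochondrial gene copies and the Hox genes were named after their values were seen. The replicate 3 libraries, the members and all gene lists were chosen with earlier results of these data known. Some genes that this rule names are not reported here.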

Additional observations from a re-analysis of the deposited data

Results flagged for a closer look

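For 12 genes the replicate 3 difference differed between the siRNA groups by the edgeR interaction test (adjusted p from 0.00654 to 0.0439). The values are log2 interaction terms, the Cox7a2l siRNA group minus the control group. Where a library is at 0 they depend on the prior count and are no bound. They were 5.80 for Gm10052, 10.3 for Pgam1-ps2, 5.56 for Gm12918, 3.44 for Gm7332, 3.98 for Gm4332, 1.94 for ENSMUSG00000118642.2 and 2.19 for ENSMUSG00000119584.1. They were -3.15 for Gm10925, -10.5 for Smt3h2-ps4, -3.23 for Gm15387, -11.2 for Nutf2-ps1 and -11.6 for Gm20716. Of the last group, Smt3h2-ps4, Nutf2-ps1 and Gm20716 were at 0 in Cox7a2l siRNA replicate 3 and at 11.02, 25.1 and 18.7 CPM in control replicate 3. ENSMUSG00000119584.1, a row without a symbol, had 6020, 6090 and 3590 CPM in the control libraries and 3980, 4890 and 12000 CPM after Cox7a2l siRNA. Its part in the totals of those libraries was not tested.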

How the results depend on the processing

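Against 677 higher and 360 lower genes, the log2 TPM scale gave 363 higher, a pseudocount of 2 CPM 409 higher and 170 lower, and a 1.5-fold threshold 1619 higher and 1099 lower. With the filter grouped by siRNA there were 567 higher and 346 lower. Fits that count by the mean difference of both groups alone gave 1394 higher and 1030 lower with edgeR and 1412 and 1060 with DESeq2. With the replicate block they gave 1435 and 1015, and the block raised the interaction count from 12 to 87, including the same 12. Leaving out a library gave 659 to 1411 higher and 348 to 1150 lower genes. The highest values leave out control replicate 3 (1411 and 1150), followed by those without Cox7a2l siRNA replicate 3 (1270 and 778), where only 1 group is left to meet the rule. The share of higher genes of the control group found in the other (61.1%) was 52.8% with library size alone, 33.0% on TPM, 51.4% with no filter, 67.7% with a pseudocount of 2 CPM and 64.5% at 1.5-fold (leave-one-out 58.6% to 62.6%). That of the Cox7a2l siRNA group (52.8%) was 61.8%, 71.7% and 45.8% under the first 3, 56.1% with 0.1 CPM and 56.5% at 1.5-fold (leave-one-out 47.0% to 54.5%). For lower genes the control share (47.7%) was 53.2% with library size alone, 66.5% on TPM, 53.2% with 2 CPM and 52.4% at 1.5-fold (leave-one-out 47.0% to 49.3%). The Cox7a2l siRNA share (33.0%) was 27.0%, 17.2% and 40.8% with library size alone, on TPM and at 1.5-fold (leave-one-out 29.5% to 34.8%). Interaction calls were 424 with no filter and 83 with DESeq2, and 12 to 4908 when a library was left out. Without Cox7a2l siRNA replicate 1 they were 4908 and without replicate 2 they were 4150, 11 of the 12 among each, and the spread then came from the close control pair alone. The interaction could not be fitted without a replicate 3 library. No value of a named gene turned its sign where the gene was counted, and 237 of 1234 such values moved by more than the SD of the 2 groups. The cause of these shifts was not tested otherwise. Depth is lowest in Cox7a2l siRNA replicate 3, where 3 counts are 0.334 CPM.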

Other observations

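Hox genes, the position factors of the embryo, were looked at after Hoxb9 appeared among the lowest genes. All 7 tested genes of the Hoxb cluster had log2 differences below 0 in both groups, of only -0.05 for Hoxb4 in the Cox7a2l siRNA group, and 5 were counted as lower, with medians of -1.69 in the control group and -2.33 in the Cox7a2l siRNA group on the log2 scale. Hoxb9 had 3.64, 4.42 and 0 CPM in the control libraries 1, 2 and 3 and 3.11, 2.32 and 0 CPM after Cox7a2l siRNA, at least 23.3-fold and 8.12-fold lower. Hoxb3 had 3.44, 3.52 and 0.288 CPM, and 3.30, 4.15 and 0.334 CPM. Hoxb6 had 3.18, 2.90 and 0 CPM, and 4.13, 4.15 and 0.334 CPM. The 11 tested Hoxa genes had medians of 0.24 and 0.29 and none was counted as lower, and the 9 Hoxc genes had 0.49 and 0.78. Hoxc10 was on the higher side, at 34.0, 36.3 and 89.8 CPM, and 38.9, 46.6 and 100.5 CPM. All 9 Hoxd genes looked up were at 0 in each library. The levels of the Hoxb genes are low, and the set was chosen for its values.

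The ratio of estimated count to TPM gives the effective length used for a gene, up to a factor per library, and depends on which transcripts the reads were assigned to. Among 8956 genes with at least 100 counts in each library, this length was at least 1.5-fold shorter in replicate 3 of both groups for 137 genes and longer for 73, and 12 went opposite ways. Between replicates 1 and 2 it differed that much for 57 genes in the control group and 64 in the Cox7a2l siRNA group, against 460 and 669 between replicate 3 and their mean. Ddx5, an RNA helicase, had log2 length differences of -1.31 and -1.66, with a mean log2 difference in level of -0.02.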
